A study of Mus musculus with 12 samples.

Results

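The complement genes described here are 9 of the 55450 genes counted in mouse type II alveolar epithelial (AT2) cells. They are the components C3, Cfb, C2, C4b, C1ra and C1s1 and the regulators Serping1, Cd55 and Cd59a, and each was taken from the count table by its symbol. All 9 passed the filter on low counts, as did 20612 genes in all.

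Complement is a cascade of plasma and tissue proteins that tags microbes and debris and recruits leukocytes. The classical pathway starts with proteases that cleave C4 and C2, the alternative pathway runs through factor B, and both form enzymes that cleave C3, the protein on which the pathways meet. Membrane and plasma regulators stop the cascade on host cells, and lung epithelium is known to make several of these proteins itself.

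AT2 cells came from AhRfl/fl mice, whose aryl hydrocarbon receptor gene is floxed and intact, and from Sftpc-Cre;AhRfl/fl mice, in which Cre driven by the surfactant protein C promoter deletes the floxed part in AT2 cells. The Sftpc-Cre;AhRfl/fl line was on a C57BL/6 background. The study's methods give the age of all mice as a range of weeks, here called young adults. Cells were enriched by removing those that bound antibodies to CD16/32, CD45, Ter119 and Sca-1, cultured on collagen I, and given either PBS or 50 µg/ml of cockroach extract (CRE), for 24 h. Each genotype and treatment had 3 libraries, 12 in all, with total counts from 68878065 to 80935797. The 4 groups are therefore AhRfl/fl cells with PBS, AhRfl/fl cells with CRE, Sftpc-Cre;AhRfl/fl cells with PBS and Sftpc-Cre;AhRfl/fl cells with CRE. The labels do not say whether libraries of a group come from separate mice, so p-values measure only the spread between these samples, which may be technical. Levels are given as CPM, the count scaled to the size of its library after TMM normalization, and levels of different genes are compared as FPKM, which takes gene length into account.

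By FPKM, C3 was the most abundant of the 9 genes, with a mean of 53.2 over the 12 libraries and a range from 30.8 to 77.6 FPKM. Cd55 followed with a mean of 17.6 FPKM and a range from 15.9 to 19.0, the narrowest relative to its level, so that no library of Cd55 reached the lowest library of C3. Cfb had a mean of 2.76 FPKM, Serping1 of 1.93 and C1s1 of 1.87. Cd59a had a mean of 1.25 FPKM, C1ra of 1.20, C4b of 1.05 and C2 of 0.704. Below Cd55 the ranges of neighbours in this order overlapped, and Cfb alone ran from 1.102 to 6.85 FPKM. The place of Cfb in this order depends on the CRE libraries. With PBS its means, 1.695 FPKM in AhRfl/fl and 1.795 in Sftpc-Cre;AhRfl/fl cells, were below those of Serping1, 2.058 and 1.966 FPKM. The abundant transcripts were those of the central component C3 and the membrane regulator Cd55, and C1ra, C1s1 and C2, which encode proteases, were much lower.

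**Figure D1:**
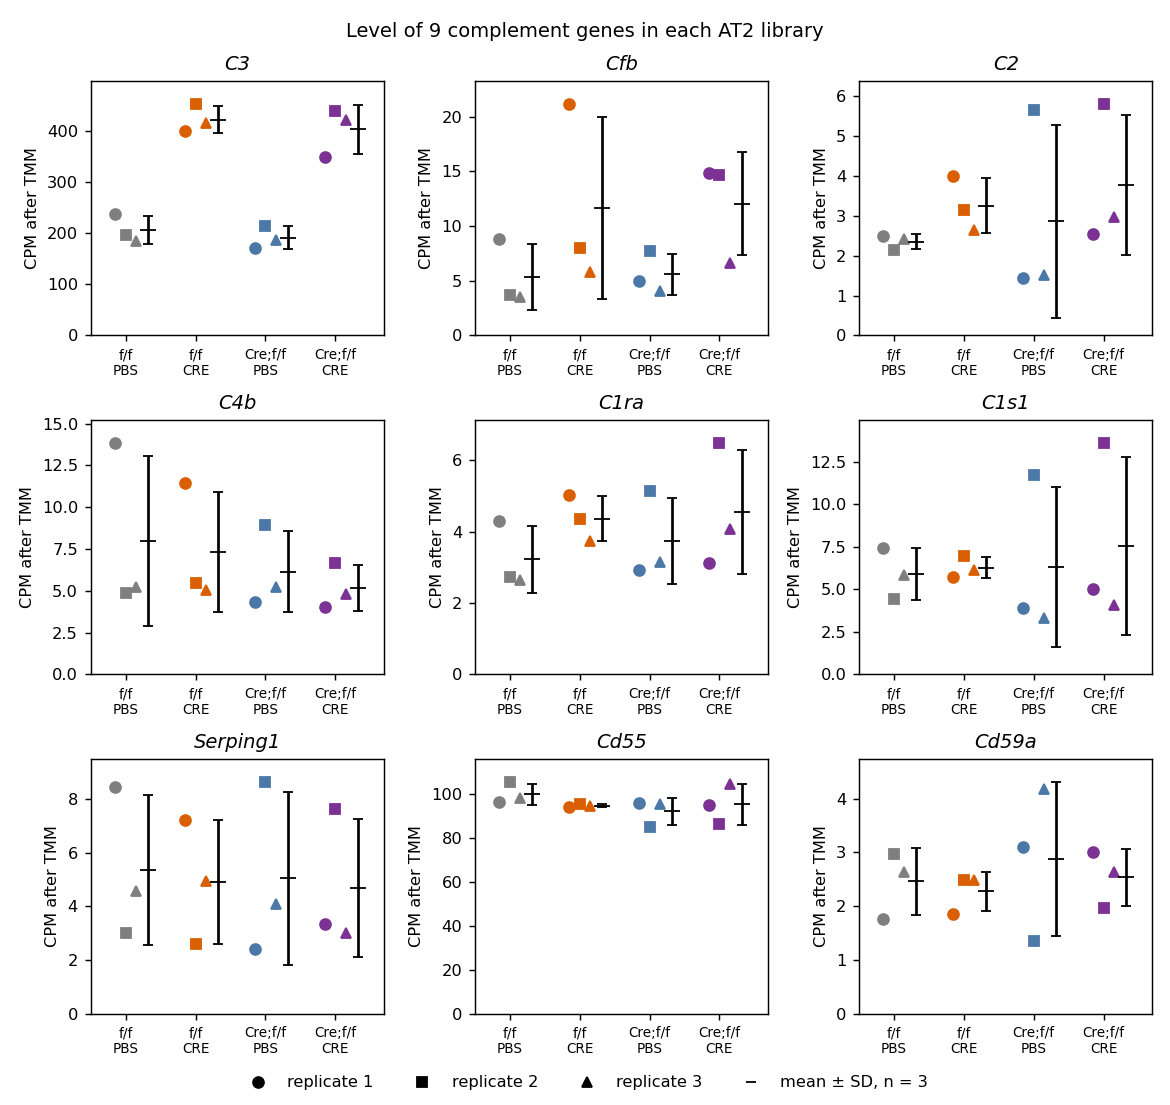
Level in CPM after TMM (vertical axes, each from 0) of the 9 complement genes in every library of the 4 groups, f/f for AhRfl/fl and Cre;f/f for Sftpc-Cre;AhRfl/fl, with mean ± SD of 3 libraries beside the points. The CRE libraries of C3, from 349 to 452 CPM, all lie above the PBS libraries, from 171 to 237 CPM, and the groups of Cfb overlap.

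C3 is the protein whose cleavage opens every effector arm of complement. In AhRfl/fl cells it had 237, 196 and 185 CPM in the PBS libraries 1, 2 and 3 and 399.9, 452 and 414 CPM in the CRE libraries. In Sftpc-Cre;AhRfl/fl cells it had 171, 215 and 187 CPM with PBS and 349, 439.5 and 421 CPM with CRE. Every CRE library of C3 lay above every PBS library, in both genotypes. The group means were 206 ± 27.7 and 422 ± 27.0 CPM in AhRfl/fl cells and 191 ± 22.3 and 403 ± 47.6 CPM in Sftpc-Cre;AhRfl/fl cells (SD, n = 3). C3 rose 2.05-fold with CRE in AhRfl/fl cells, or by 1.04 ± 0.12 on the log2 scale (± SE; edgeR, Benjamini-Hochberg adjusted p = 0.00666). It rose 2.11-fold in Sftpc-Cre;AhRfl/fl cells, or by 1.08 ± 0.12 (± SE; edgeR, Benjamini-Hochberg adjusted p = 0.00694). Averaged over both genotypes the log2 fold change of C3 was 1.06 ± 0.087 (± SE; edgeR, Benjamini-Hochberg adjusted p = 0.000204). C3 was higher with CRE in 6 of 6 pairs of libraries with the same number.

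The call of C3 in AhRfl/fl cells was lost without PBS library 2 (edgeR, Benjamini-Hochberg adjusted p = 0.0515). That was the highest of its 16 alternatives, and the lowest was 1.44e-11 in DESeq2. In Sftpc-Cre;AhRfl/fl cells it was lost when only the 6 libraries of that genotype were fitted (edgeR, Benjamini-Hochberg adjusted p = 0.0582), again the highest of 16, with 1.92e-12 in DESeq2 as the lowest. Over these 16 alternatives the log2 fold change of C3 ran from 0.96 to 1.175 in AhRfl/fl cells and from 1.00 to 1.17 in Sftpc-Cre;AhRfl/fl cells.

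Cfb, factor B, supplies the protease of the alternative pathway. In AhRfl/fl cells it had 8.82, 3.72 and 3.54 CPM with PBS and 21.2, 7.96 and 5.81 CPM with CRE. Its Sftpc-Cre;AhRfl/fl libraries had 4.95, 7.70 and 4.10 CPM with PBS and 14.9, 14.7 and 6.66 CPM with CRE. Library 1 of AhRfl/fl cells was high under both treatments, and the CRE and PBS libraries overlapped in both genotypes, although the CRE library was higher in 6 of 6 pairs with the same number. The log2 fold change of Cfb was 1.12 in AhRfl/fl cells (95% interval -0.079 to 2.32) and 1.11 in Sftpc-Cre;AhRfl/fl cells (95% interval -0.086 to 2.31). Neither passed (edgeR, Benjamini-Hochberg adjusted p = 0.568 and 0.814). Averaged over the genotypes it was 1.12 (95% interval 0.27 to 1.96), which did not pass either (edgeR, Benjamini-Hochberg adjusted p = 0.281). DESeq2, also without pairs, did call Cfb in this averaged comparison after adjustment, where it called 740 of all genes, but not within a genotype.

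Replicate numbers paired the CRE and PBS libraries within each genotype. With that pairing as a replicate block in edgeR, the Benjamini-Hochberg adjusted p of Cfb was 0.0392 in AhRfl/fl cells, 0.0423 in Sftpc-Cre;AhRfl/fl cells and 0.0063 averaged over both, so that it passed. This paired fit called 748, 439 and 1358 of all genes, or 3.63, 2.13 and 6.59 percent, where the fit without pairs called 48, 54 and 226. The highest Benjamini-Hochberg adjusted p of Cfb over all alternatives, in edgeR without 1 library, was 0.915, 0.942 and 0.491. The log2 fold change of Cfb in AhRfl/fl cells was 0.36 without CRE library 1 and 1.68 without PBS library 1. Without these same libraries of AhRfl/fl cells, the value averaged over the genotypes was 0.737 and 1.397. For the genes below, values are from the fit without pairs unless the paired fit is named. Their intervals therefore include the spread between library numbers, and leaving out 1 library keeps its partner in.

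C2 gives the classical pathway its C3-cleaving protease. It had 2.49, 2.16 and 2.42 CPM with PBS and 3.996, 3.14 and 2.64 CPM with CRE in AhRfl/fl cells, where the groups did not overlap. The Sftpc-Cre;AhRfl/fl libraries had 1.43, 5.67 and 1.51 CPM with PBS and 2.55, 5.81 and 2.98 CPM with CRE, with library 2 high under both treatments and the groups overlapping. The CRE library of C2 was higher in 6 of 6 pairs with the same number. Its log2 fold changes were 0.47 (95% interval -0.66 to 1.59) and 0.396 (95% interval -0.73 to 1.52), and in the paired fit 0.45 (95% interval -0.082 to 0.98) and 0.61 (95% interval 0.070 to 1.14), where neither passed (edgeR, Benjamini-Hochberg adjusted p = 0.345 and 0.292). Without CRE library 2 of Sftpc-Cre;AhRfl/fl cells, which leaves its PBS partner in the fit without pairs, the value in that genotype turned to -0.054, and without PBS library 2 it was 1.36. In AhRfl/fl cells the value of C2 was 0.29 without CRE library 1.

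C4b encodes a C4 protein, the partner of C2 in that protease. It had 13.8, 4.89 and 5.21 CPM with PBS and 11.5, 5.48 and 5.03 CPM with CRE in AhRfl/fl cells. For Sftpc-Cre;AhRfl/fl cells the values were 4.31, 8.92 and 5.22 CPM with PBS and 4.01, 6.70 and 4.80 CPM with CRE. The high libraries were number 1 in AhRfl/fl cells and number 2 in Sftpc-Cre;AhRfl/fl cells, under both treatments, and the CRE groups overlapped the PBS groups. The log2 fold changes were -0.12 (95% interval -1.16 to 0.92) and -0.25 (95% interval -1.30 to 0.79), where neither passed. The first turned positive without PBS library 1 (0.54), CRE library 2 (0.049) or CRE library 3 (0.087) of AhRfl/fl cells, and the second without PBS library 2 of Sftpc-Cre;AhRfl/fl cells (0.12).

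C1ra and C1s1 encode C1r and C1s, the proteases of the C1 complex that start the classical pathway. C1ra had 4.30, 2.74 and 2.64 CPM with PBS and 5.02, 4.36 and 3.73 CPM with CRE in AhRfl/fl cells, and 2.93, 5.13 and 3.15 against 3.11, 6.48 and 4.08 CPM in Sftpc-Cre;AhRfl/fl cells. It was higher with CRE in 6 of 6 pairs with the same number, yet the groups overlapped in both genotypes. Its log2 fold changes were 0.44 (95% interval -0.28 to 1.16) and 0.29 (95% interval -0.44 to 1.01), the former 0.70 without PBS library 1 and the latter -0.058 without CRE library 2, whose PBS partner stays in, and 0.58 without PBS library 2. The paired fit gave 0.46 (95% interval 0.12 to 0.81) and 0.27 (95% interval -0.077 to 0.61), and neither passed (edgeR, Benjamini-Hochberg adjusted p = 0.152 and 0.479). C1s1 had 7.44, 4.41 and 5.88 CPM with PBS and 5.71, 6.94 and 6.16 CPM with CRE in AhRfl/fl cells, and 3.90, 11.8 and 3.32 against 5.003, 13.6 and 4.09 CPM in Sftpc-Cre;AhRfl/fl cells. Library 2 of Sftpc-Cre;AhRfl/fl cells held the highest C1s1 level under each treatment, and the groups overlapped. The log2 fold changes of C1s1 without pairs were 0.085 (95% interval -1.09 to 1.26) and 0.26 (95% interval -0.92 to 1.43), and neither passed. Its CRE to PBS ratios in pairs 1, 2 and 3 were 0.768, 1.57 and 1.05 in AhRfl/fl cells. In Sftpc-Cre;AhRfl/fl cells they were 1.28, 1.16 and 1.23. The paired fit did not call C1s1 in either genotype. The first was -0.086 without PBS library 2 of AhRfl/fl cells. In Sftpc-Cre;AhRfl/fl cells the second was -0.475 without CRE library 2, whose PBS partner stays in, and -0.050 without PBS library 3.

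Serping1 encodes C1 inhibitor, which inactivates C1r and C1s. It had 8.44, 3.02 and 4.56 CPM with PBS and 7.22, 2.59 and 4.95 CPM with CRE in AhRfl/fl cells. The other genotype had 2.42, 8.62 and 4.07 CPM with PBS and 3.35, 7.64 and 3.02 CPM with CRE. Library 1 was the highest in both AhRfl/fl groups and library 2 in both Sftpc-Cre;AhRfl/fl groups, and the CRE and PBS groups overlapped. Its log2 fold changes were -0.12 (95% interval -1.39 to 1.15) and -0.11 (95% interval -1.38 to 1.16), and neither passed. The first was 0.38 without PBS library 1 and 0.19 without CRE library 2 of AhRfl/fl cells. The second was 0.52 without PBS library 2, 0.079 without CRE library 1 and 0.12 without CRE library 3 of Sftpc-Cre;AhRfl/fl cells.

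Cd55 encodes decay-accelerating factor, a membrane protein that takes apart the C3-cleaving enzymes. It had 96.2, 105 and 97.9 CPM with PBS and 94.0, 95.2 and 94.5 CPM with CRE in AhRfl/fl cells. Its Sftpc-Cre;AhRfl/fl libraries had 95.7, 84.7 and 95.5 CPM with PBS and 94.99, 86.0 and 105 CPM with CRE. The CRE libraries of AhRfl/fl cells all lay just below the PBS libraries, and in the other genotype the groups overlapped. The log2 fold changes were -0.078 and 0.050, and their 95% intervals, -0.25 to 0.096 and -0.12 to 0.22, were the narrowest among the 9 genes. Neither passed, and the second was -0.023 without CRE library 3 and -0.00503 without PBS library 2 of Sftpc-Cre;AhRfl/fl cells.

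Cd59a encodes a membrane protein that blocks the terminal attack complex. It had 1.76, 2.97 and 2.64 CPM with PBS and 1.86, 2.48 and 2.48 CPM with CRE in AhRfl/fl cells, and 3.10, 1.35 and 4.18 against 3.01, 1.97 and 2.64 CPM in Sftpc-Cre;AhRfl/fl cells. Its groups overlapped in both genotypes. The log2 fold changes were -0.11 (95% interval -0.95 to 0.72) and -0.18 (95% interval -1.01 to 0.65), and neither passed. The first was 0.046 without PBS library 2 and 0.014 without CRE library 1 of AhRfl/fl cells, and the second 0.19 without PBS library 3 of Sftpc-Cre;AhRfl/fl cells.

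**Figure D2:**
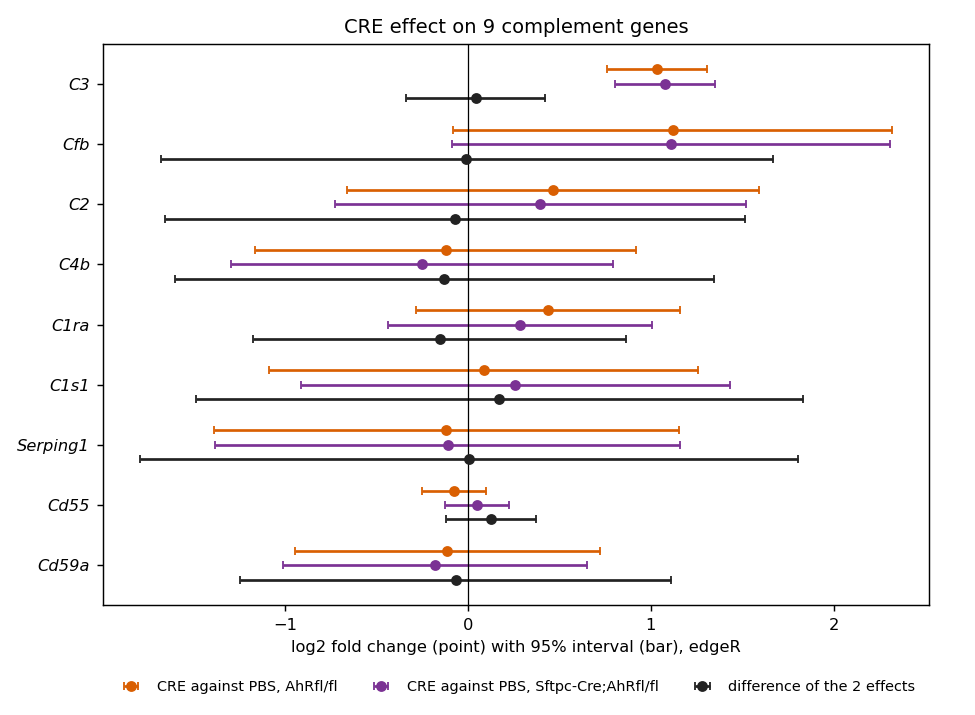
log2 fold change with CRE (horizontal axis) of the 9 complement genes in AhRfl/fl and Sftpc-Cre;AhRfl/fl cells and the difference of these 2 effects, each a point with its 95% interval from edgeR without pairs. Only the CRE intervals of C3 lie wholly above 0, and all 9 intervals of the difference include 0.

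In AhRfl/fl cells, 1 of the 9 genes, C3, passed edgeR's test with CRE, where 0.233 percent of all genes tested did. A looser rule taken from the study's methods (limma-trend with a p under 0.05 before adjustment and a log2 value beyond 0.5 either way) also took 1 of 9, against 4.11 percent of all genes. Groups did not overlap for 3 of the 9, C3, C2 and Cd55, where the share of all genes was 16.5 percent. For Sftpc-Cre;AhRfl/fl cells the edgeR count was again 1, C3, against 0.262 percent of all genes, and the limma-trend rule took 1 against 3.38 percent. There the groups did not overlap for 1 of the 9, C3, against 11.8 percent of all genes. Averaged over the genotypes, edgeR called 1 of 9 against 1.1 percent of all genes and the limma-trend rule took 2, C3 and Cfb, against 4.02 percent. All 6 CRE libraries were apart from all 6 PBS libraries for 1 of 9, C3, against 1.5 percent. The median log2 fold change over the 9 genes was 0.085 in AhRfl/fl cells, 0.26 in Sftpc-Cre;AhRfl/fl cells and 0.17 averaged, beside medians over all genes tested of -0.0012, -0.0027 and -0.0021. Before adjustment 1 of the 9 was under 0.05 in each genotype and 2 averaged, where 9.36, 6.48 and 11.1 percent of all genes were. With the pairing described above, 2 of the 9, C3 and Cfb, passed in each of these 3 comparisons, where 3.63, 2.13 and 6.59 percent of all genes did. DESeq2 without pairs called C3 in each genotype and C3 and Cfb averaged. The CRE library was higher in 6 of 6 pairs with the same number for 4 of the 9, C3, Cfb, C2 and C1ra, against 7.57 percent of all genes, and lower in 6 of 6 for 0 of the 9, against 6.79 percent. It was higher in 5 of 6 pairs for C1s1, 2 for Serping1, Cd55 and Cd59a and 1 for C4b.

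The size of the CRE effect was compared between the genotypes directly. For this difference edgeR called 0 of the 9 genes, against 0 percent of all genes, and at a p under 0.05 before adjustment the member count was 0, against 3.7 percent. The limma-trend rule took 0 of 9, against 2.3 percent of all genes, and DESeq2, limma and the paired fit each called 0 after adjustment. The difference for C3 was 0.043 on the log2 scale, with a 95% interval from -0.34 to 0.42. Its sign turned without PBS library 1 of AhRfl/fl cells (-0.072) and, in Sftpc-Cre;AhRfl/fl cells, without PBS library 1 (-0.032) or CRE library 2 (-0.025). For Cfb it was -0.0077 with a 95% interval from -1.68 to 1.67, which does not show that the effects were alike. The paired fit gave 0.045 for Cfb with a narrower 95% interval, from -0.59 to 0.68, which does not show it either. The sign for Cfb turned without PBS library 2, PBS library 3 or CRE library 1 of AhRfl/fl cells (0.20, 0.22 and 0.75) and without PBS library 2 or CRE library 3 of Sftpc-Cre;AhRfl/fl cells (0.297 and 0.28). Over the 9 genes the differences without pairs ran from -0.15 for C1ra to 0.17 for C1s1. Their widest 95% interval reached 1.80 to either side. C1ra turned to 0.15 without PBS library 2 and 0.059 without CRE library 1 of Sftpc-Cre;AhRfl/fl cells. C1s1 turned to -0.029 without PBS library 1 of AhRfl/fl cells and, in Sftpc-Cre;AhRfl/fl cells, to -0.082 without PBS library 1, -0.14 without PBS library 3 and -0.56 without CRE library 2.

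Between the genotypes, the targeted gene was looked at before the complement genes. Ahr had 42.9, 43.8 and 45.1 CPM with PBS in AhRfl/fl cells and 49.6, 40.2 and 45.7 CPM in Sftpc-Cre;AhRfl/fl cells, with overlapping groups. With CRE it had 56.2, 50.5 and 50.1 CPM in AhRfl/fl cells and 51.4, 37.7 and 49.5 CPM in Sftpc-Cre;AhRfl/fl cells, again overlapping. The count covers the whole gene, including parts that the deletion leaves in place, so it does not check the genotype labels. Cyp1b1, an AhR target singled out after its values were seen, had 344, 404 and 404 CPM with PBS in AhRfl/fl cells and 59.0, 31.8 and 43.3 CPM in Sftpc-Cre;AhRfl/fl cells. It was lower by a log2 fold change of -3.10 with PBS and -3.17 with CRE (edgeR, Benjamini-Hochberg adjusted p = 0.000879 and 0.000714).

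With PBS, edgeR called 0 of the 9 complement genes between the genotypes, against 0.15 percent of all genes, with 0 at a p under 0.05 before adjustment, against 8.37 percent. The limma-trend rule took 0 of 9 against 4.1 percent of all genes, and DESeq2 and limma each called 0 after adjustment. The groups did not overlap for 1 of the 9, Cd55, against 14 percent of all genes. The log2 fold changes, Sftpc-Cre;AhRfl/fl against AhRfl/fl, ran from -0.37 for C4b to 0.28 for C2. C4b turned to 0.29 without PBS library 1 of AhRfl/fl cells, and C2 turned to -0.68 without PBS library 2 of Sftpc-Cre;AhRfl/fl cells. Cd55 had -0.12, with a 95% interval from -0.29 to 0.057, and C3 had -0.11, with a 95% interval from -0.38 to 0.16, which was 0.0054 without PBS library 1 of AhRfl/fl cells.

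With CRE, edgeR called 0 of the 9 between the genotypes, against 0.17 percent of all genes, with 0 at a p under 0.05 before adjustment, against 5.95 percent. The limma-trend rule took 0 of 9 against 3.42 percent, DESeq2 and limma each called 0 after adjustment, and the groups overlapped for each of the 9, so that 0 were apart against 11 percent of all genes. The log2 fold changes ran from -0.50 for C4b to 0.27 for C1s1, and C1s1 turned to -0.45 without CRE library 2 of Sftpc-Cre;AhRfl/fl cells, while C4b was at -0.025 without CRE library 1 of AhRfl/fl cells. C3 had -0.067, with a 95% interval from -0.34 to 0.20, and 0.027 without CRE library 1 of Sftpc-Cre;AhRfl/fl cells. Averaged over both treatments edgeR called 0 of 9 against 0.631 percent of all genes, 0 were under 0.05 before adjustment against 9.93 percent, and DESeq2 and limma each called 0 after it. The limma-trend rule took 0 against 4.11 percent, and 0 of 9 were apart against 1.19 percent. The averaged log2 fold changes ran from -0.44 for C4b (95% interval -1.18 to 0.30), which was -0.11 without PBS library 1 of AhRfl/fl cells, to 0.25 for C2 (95% interval -0.55 to 1.04), which was -0.23 without PBS library 2 of Sftpc-Cre;AhRfl/fl cells. The 95% interval of C3 ran from -0.28 to 0.10. This averaged fit counts the PBS and CRE libraries of a pair as separate replicates, although they are not independent within a genotype, so its intervals can be too narrow and its p-values too small. With the counts of each pair summed, 3 sets against 3, an alternative chosen after the data were seen, edgeR called 0 of 9 against 0.0776 percent of all genes, 0 were under 0.05 before adjustment, and the 95% intervals were -1.46 to 0.61 for C4b, -0.79 to 1.27 for C2 and -0.32 to 0.13 for C3.

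The libraries of a group differed in their levels of markers of other cell types, and several complement genes were high in the same libraries. The 10 fibroblast markers, led by Col1a1, summed to 204, 87.9 and 162 CPM with PBS and 184, 77.0 and 157 CPM with CRE in AhRfl/fl cells. Across Sftpc-Cre;AhRfl/fl libraries the sums were 114, 278 and 86.7 CPM with PBS and 101, 237.5 and 87.4 CPM with CRE, and 0 of the 10 markers were at 0 counts in any library. The library highest in fibroblast markers was also the highest for C2, C4b, C1ra and Serping1 in 4 of 4 groups. It was the highest for C3, Cfb and C1s1 in 3 of 4, but for Cd55 and Cd59a in 0 of 4. That library was number 1 in both AhRfl/fl groups and number 2 in both Sftpc-Cre;AhRfl/fl groups. These are paired libraries, so the 4 groups are not independent, and the share of all genes with this pattern is not given. In bulk RNA, fewer cells of a type and less RNA per cell cannot be told apart, and the part of these cells in the levels of C2, C4b, C1ra, C1s1 and Serping1 was not tested. Without the library highest in fibroblast markers of each group, an alternative chosen after the data were seen, the log2 fold change of C3 with CRE was 1.175 in AhRfl/fl cells, 1.103 in Sftpc-Cre;AhRfl/fl cells and 1.14 averaged over the genotypes, and passed in each.

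The AT2 markers were present in every library, with a sum over 10 genes from 4497 to 9108 CPM that Sftpc led, and within Sftpc-Cre;AhRfl/fl cells the sum was lowest in library 1, with 4497 CPM under PBS and 4683 CPM under CRE. In AhRfl/fl cells the AT2 sum was 8356, 8610 and 7641 CPM with PBS and 7322, 7371 and 6699 CPM with CRE, lower in all CRE libraries, at 0.869 of the PBS mean. In Sftpc-Cre;AhRfl/fl cells the groups overlapped, at 1.03 of it. The AT2 sum was lower with CRE in 3 of 3 same-numbered AhRfl/fl pairs and in 0 of 3 Sftpc-Cre;AhRfl/fl pairs. Libraries 2 and 3 of the latter went from 6313 to 6397 and from 8734 to 9108 CPM. The 8 markers of AT1 cells, led by Clic5, summed to 1669, 1991 and 2107 CPM with PBS and 1119, 1351 and 1403 CPM with CRE in AhRfl/fl cells. The Sftpc-Cre;AhRfl/fl sums were 1769, 2398 and 2030 CPM with PBS and 1295, 1657 and 1459 CPM with CRE, so this sum was lower in all CRE libraries than in the PBS libraries of its genotype. The exact two-sided permutation p was 0.1 for the AT1 sum in each genotype and for the AT2 sum in AhRfl/fl cells, the smallest that 3 against 3 allows (0.667 after Benjamini-Hochberg adjustment over 40 sums and comparisons). edgeR called 3 of these 8 genes lower with CRE averaged over the genotypes, Ager, Rtkn2 and Clic5, and 1 of the 10 AT2 genes, Etv5. Of all genes it called 1.1 percent there. The paired fit called 5 AT1 genes lower and, of the AT2 genes, 4 lower and 2 higher, against 6.59 percent of all genes. Within AhRfl/fl cells and within Sftpc-Cre;AhRfl/fl cells it called 4 AT1 genes lower, and of the AT2 genes 3 lower and 1 higher, and 2 lower and 2 higher, where edgeR without pairs and limma called 0 and DESeq2 called 4 and 1 AT1 genes and 1 AT2 gene in each. Of all genes the paired fit called 3.63 and 2.13 percent there, edgeR without pairs 0.233 and 0.262 percent, and DESeq2 called 409 and 254 genes. Before adjustment, without pairs, 5 and 4 AT1 genes and 1 and 2 AT2 genes were under 0.05, where 9.36 and 6.48 percent of all genes were. Averaged, limma called 3 AT1 genes and 1 AT2 gene and DESeq2 5 and 1. Their part in the C3 result was not tested. The 10 macrophage markers, led by Cd68, summed to 169, 57.1 and 36.2 CPM with PBS and 160, 56.5 and 37.7 CPM with CRE in AhRfl/fl cells. Those of Sftpc-Cre;AhRfl/fl cells were 125, 52.5 and 47.1 CPM with PBS and 114, 46.3 and 45.8 CPM with CRE. In AhRfl/fl cells Siglecf was at 0 counts in CRE libraries 1 and 2 and Fcgr1 in CRE library 3. Library 1 had the highest macrophage sum in all 4 groups, and it was the highest for Cfb in 3 of them. The macrophage sum rests on Cd68 for 42.2 percent, and the median log2 fold change of the 10 genes with CRE was lower than the sums show, at -0.55 in AhRfl/fl and -0.72 in Sftpc-Cre;AhRfl/fl cells. The markers went both ways, with 4 positive and 6 negative values in AhRfl/fl cells and 3 and 7 in Sftpc-Cre;AhRfl/fl cells. Adgre1 was higher with CRE in 6 of 6 pairs, by ratios from 2.65 to 7.47, and Siglecf, Mrc1, Mertk, Ear2 and Fcgr1 in 0 of 6. edgeR without pairs called 0 of them in the 7 comparisons. For CRE averaged over the genotypes 4 of the 10 were under 0.05 before adjustment, against 11.1 percent of all genes. There DESeq2 and limma each called 1 after adjustment. DESeq2 also called 1 with CRE in AhRfl/fl cells. The paired fit called Adgre1 higher and Ear2 lower in each genotype and averaged, and Siglecf, Mrc1 and Mertk lower averaged. Its shares of all genes were 3.63 and 2.13 percent in the genotypes and 6.59 percent averaged.

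Of the remaining cell types, the 6 club cell markers, of which Scgb1a1 made up 94.8 percent, summed to between 4164 and 8360 CPM. The 6 mesothelial markers, led by Msln, summed to between 137 and 292.5 CPM, the 8 endothelial markers, led by Pecam1, to between 48.8 and 106 CPM, and the 8 neutrophil markers, led by Mmp8, to between 5.90 and 54.5 CPM. Beside the AT1 sum, the club cell, mesothelial and endothelial sums were each lower with CRE in 6 of 6 pairs with the same number. The fibroblast and macrophage sums were lower in 5 of 6 and the neutrophil sum in 1 of 6. The AT2 sum was lower in 3 of 6, all of them pairs of AhRfl/fl cells. The part of these cell types in the complement values was not tested. Ly6g and Cxcr2 of the neutrophil list were at 0 counts in some library. All 8 neutrophil markers had negative log2 fold changes in Sftpc-Cre;AhRfl/fl against AhRfl/fl cells, with medians of -1.05 under PBS and -1.11 under CRE. Their sums overlapped between the genotypes. With PBS they were 54.5, 40.9 and 7.47 CPM in AhRfl/fl and 17.1, 18.3 and 5.90 CPM in Sftpc-Cre;AhRfl/fl cells. With CRE they were 45.25, 41.4 and 13.1 against 23.5, 18.7 and 6.29 CPM. edgeR without pairs called 0 genes of these 4 lists in the 7 comparisons. At most 3 of a list were under 0.05 before adjustment, where 3.7 to 11.1 percent of all genes were. After adjustment limma called 0, and DESeq2 called 1 club cell marker for CRE averaged over the genotypes. The paired fit, averaged over the genotypes, called 3 mesothelial markers and 1 endothelial marker lower, 1 neutrophil marker higher, and 1 club cell marker higher and 1 lower. It called 6.59 percent of all genes there, 3.63 percent in AhRfl/fl cells and 2.13 percent in Sftpc-Cre;AhRfl/fl cells. In AhRfl/fl cells it called 2 mesothelial markers lower, 1 endothelial marker higher and 1 lower, 1 neutrophil marker higher, and 1 club cell marker higher and 1 lower, and in Sftpc-Cre;AhRfl/fl cells 3 mesothelial markers lower and 1 club cell marker higher. The fibroblast markers had 0 called by the fit without pairs, DESeq2 or limma and 0 under 0.05 before adjustment in all 7 comparisons. With the pairing, edgeR called 1 of them lower with CRE in AhRfl/fl cells, Col1a2, 0 in Sftpc-Cre;AhRfl/fl cells and 3 lower averaged, Col1a1, Col1a2 and Col3a1, beside the same shares of all genes.

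**Figure D3:**
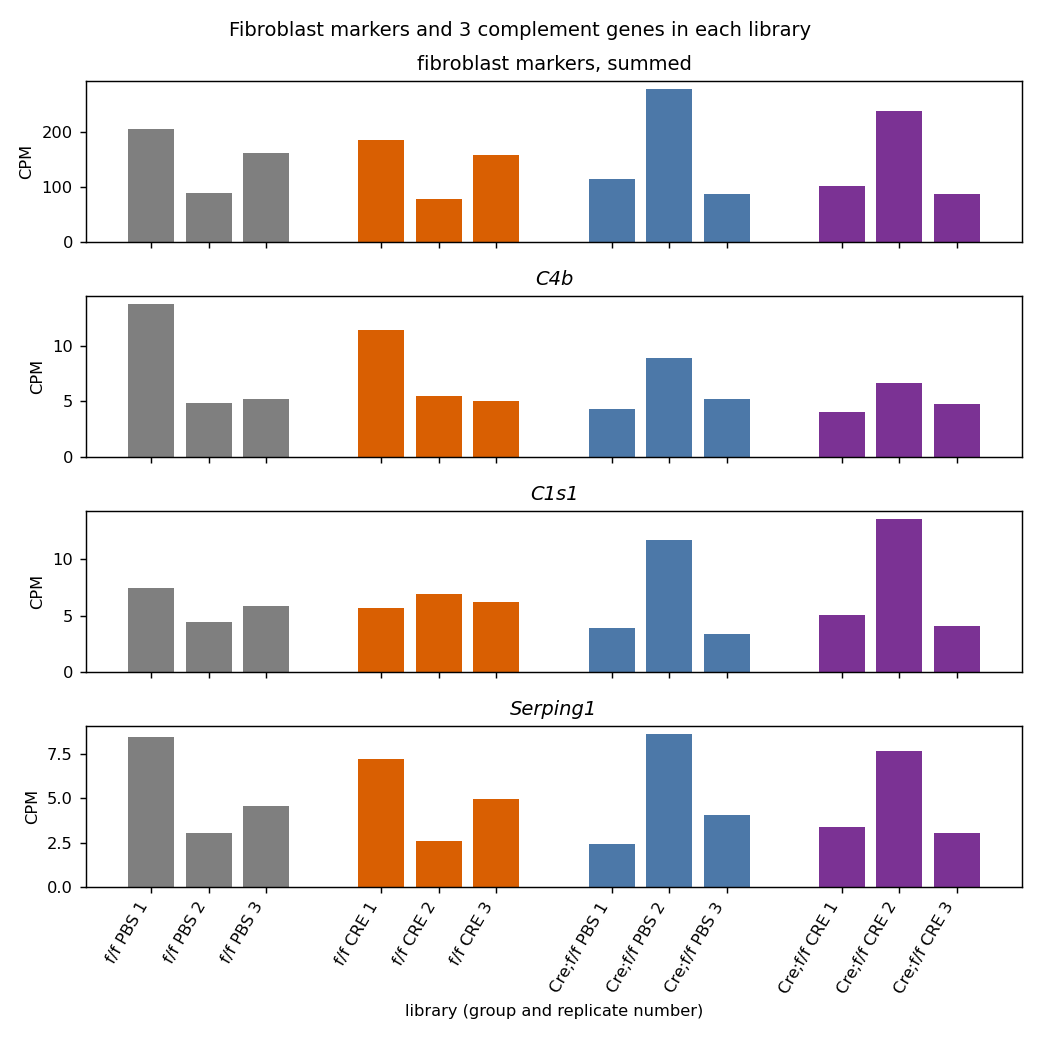
Summed level of the 10 fibroblast markers and level of C4b, C1s1 and Serping1 (CPM after TMM, vertical axes from 0) in each of the 12 libraries, 1 bar a library. Library 2 of Sftpc-Cre;AhRfl/fl cells is the highest of its group in all 4 panels under both treatments, with 278 and 237.5 CPM of fibroblast markers.

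The genes whose profile over the 12 libraries was most like that of C3, by the root mean square difference of centred log2 CPM, were Nfkbia (0.130), Gtse1 (0.138) and Gsta3 (0.154). Nfkbia encodes an inhibitor of NF-kB that NF-kB itself induces, Gtse1 a protein of cell division and Gsta3 a glutathione transferase. With CRE in AhRfl/fl cells the log2 fold changes of Nfkbia, Gtse1 and Gsta3 were 0.93, 1.00 and 0.94, beside 1.04 for C3, a likeness that the choice of these genes by profile fixes and that is no result of its own. In a list of 15 genes that respond to NF-kB, edgeR called 5 higher with CRE in AhRfl/fl cells, 5 in Sftpc-Cre;AhRfl/fl cells and 7 averaged over both, and 0 lower, where 0.233, 0.262 and 1.1 percent of all genes were called in either direction. The paired fit called 11, 10 and 12 of them, all higher, against 3.63, 2.13 and 6.59 percent. Their median log2 fold changes in these comparisons were 0.93, 0.99 and 0.96, where those of all genes tested were -0.0012, -0.0027 and -0.0021. Among them were the neutrophil chemokines Cxcl1, Cxcl2 and Cxcl5. The list was chosen with earlier results of these data known. It holds Nfkbia, picked above by its profile, and Cxcl2 and Ccl20, which the study had named among genes upregulated with CRE. These counts are therefore no independent result. In a list of 15 interferon-responsive genes edgeR called 0 with CRE in AhRfl/fl cells, Sftpc-Cre;AhRfl/fl cells or averaged, with medians of 0.033, 0.11 and 0.053. In each of these 1 gene was under 0.05 before adjustment, where 9.36, 6.48 and 11.1 percent of all genes were. After adjustment limma called 0, 0 and 1 and DESeq2 0, 1 and 1. The paired fit called 1, Cxcl10, higher in each, against 3.63, 2.13 and 6.59 percent of all genes. Between genotypes, averaged over the treatments, Ifit3 alone of this list had an edgeR call (log2 fold change 0.93, Benjamini-Hochberg adjusted p = 0.0409), which was lost with the counts of each pair summed (0.94, edgeR, Benjamini-Hochberg adjusted p = 0.494).

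Of 53 other complement genes, 37 passed the filter, and edgeR without pairs called 0 of them in each of the 7 comparisons. The paired fit called 2 lower with CRE in AhRfl/fl cells and in Sftpc-Cre;AhRfl/fl cells, Clu and Itgax, and 6 lower averaged, and 0 higher, against 3.63, 2.13 and 6.59 percent of all genes. For the difference of the CRE effect it called 0. Before adjustment, without pairs, 3 were under 0.05 with CRE in AhRfl/fl cells, 7 in Sftpc-Cre;AhRfl/fl cells and 6 averaged, where 9.36, 6.48 and 11.1 percent of all genes were, limma called 0, and DESeq2 called 0, 1 and 2. Between genotypes 4 were under 0.05 before adjustment with PBS, 3 with CRE and 7 averaged, and for the difference of the CRE effect 2, against 8.37, 5.95, 9.93 and 3.7 percent of all genes, where limma called 0 and DESeq2 called 1, 0, 2 and 0. With the counts of each pair summed, edgeR called 0 between genotypes and 4 were under 0.05 before adjustment. The limma-trend rule took 0 of these 37 higher and 3 lower with CRE in AhRfl/fl cells, 3 higher and 4 lower in Sftpc-Cre;AhRfl/fl cells, and 1 higher and 4 lower averaged, where it took 4.11, 3.38 and 4.02 percent of all genes in either direction. The most abundant was Clu, clusterin, an inhibitor of the terminal complex, with a mean of 682.6 FPKM over the 12 libraries. Clu had 2159, 3015 and 4048 CPM with PBS and 1493, 2157 and 3415 CPM with CRE in AhRfl/fl cells, with overlapping groups, and a log2 fold change of -0.38 (95% interval -1.07 to 0.30). The CRE library of Clu was higher in 0 of 6 pairs with the same number over both genotypes, and in the paired fit its log2 fold change was -0.42 (95% interval -0.55 to -0.29) in AhRfl/fl cells and -0.31 (95% interval -0.44 to -0.18) in Sftpc-Cre;AhRfl/fl cells, which passed (edgeR, Benjamini-Hochberg adjusted p = 0.0138 and 0.0408). The other regulators named by level were Cr1l, which encodes Crry, a rodent membrane regulator of the C3-cleaving enzymes, with a mean of 7.87 FPKM, and Susd4 with 3.16 FPKM. Among the terminal components, Hc, which encodes C5, had a mean of 8.96 FPKM, C6 of 0.963 and C8g of 0.191.

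Hc had 72.3, 74.6 and 72.4 CPM with PBS in AhRfl/fl cells and 40.5, 49.2 and 72.4 CPM in Sftpc-Cre;AhRfl/fl cells, where library 3 stood near the AhRfl/fl libraries. Its averaged log2 fold change between genotypes was -0.48 (95% interval -0.85 to -0.11), which did not pass over all genes (edgeR, Benjamini-Hochberg adjusted p = 0.336). With the counts of each pair summed the 95% interval of Hc was -0.99 to 0.036. The receptors and binding proteins named by level were C1qbp, with a mean of 39.4 FPKM, Itgb2, a chain of leukocyte complement receptors, with 7.59 FPKM, and Itgax with 1.72 FPKM. Among the initiators they were Cfp, properdin, which stabilizes the C3-cleaving enzyme of the alternative pathway, with 1.65 FPKM, the collectin Colec12 with 0.992 FPKM and C1qb with 0.493 FPKM.

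C1qb encodes a chain of C1q, the recognition part of the C1 complex that macrophages make. It had 203, 79 and 0 counts with PBS in AhRfl/fl cells and 96, 152 and 12 counts with PBS in Sftpc-Cre;AhRfl/fl cells, and 0 counts in all 6 CRE libraries. The PBS library 3 of AhRfl/fl cells had none either, so these groups touched at 0. With a floor of 3 counts per library, which covers counting error only, C1qb was at least 33.0-fold lower with CRE in AhRfl/fl cells and at least 27.3-fold lower in Sftpc-Cre;AhRfl/fl cells. The bound was 14.95-fold without PBS library 1 of AhRfl/fl cells and 17.5-fold without PBS library 2 of Sftpc-Cre;AhRfl/fl cells. C1qb passed in neither genotype (edgeR, Benjamini-Hochberg adjusted p = 0.353 and 0.5505, and 0.0587 and 0.0721 with the pairing), and with the pairing it passed averaged over both (edgeR, Benjamini-Hochberg adjusted p = 0.0215). C1qa and C1qc, looked at after the values of C1qb were seen, had 23, 42 and 0 counts and 53, 28 and 0 counts with PBS in AhRfl/fl cells, and 52, 53 and 19 counts and 44, 64 and 7 counts with PBS in Sftpc-Cre;AhRfl/fl cells. With CRE both were at 0 counts in all libraries but 1, in which C1qa had 4 counts. With the pairing, averaged over the genotypes, C1qa passed and C1qc did not (edgeR, Benjamini-Hochberg adjusted p = 0.0463 and 0.074), and neither passed within a genotype. C1qa, C1qb and C1qc passed the filter on low counts through their PBS libraries alone. Their tests and the bounds are therefore no separate support for a lower level with CRE. The ratio of the mean macrophage marker sum, CRE to PBS, was 0.971 in AhRfl/fl and 0.916 in Sftpc-Cre;AhRfl/fl cells, with the lower medians given above, and the part of macrophages in the C1qb values was not tested.

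Of the 9 genes, 4 lie on chromosome 17 of GRCm38, and Cfb (34856374 to 34862518) and C2 (34862604 to 34898265) are 85 bases apart on the same strand. C4b (34728380 to 34743882) lies 112491 bases from Cfb, and C3 (57203970 to 57228136) lies elsewhere on that chromosome. C1ra (124512405 to 124523443) and C1s1 (124530345 to 124542359) are 6901 bases apart on chromosome 6 and on opposite strands. Serping1 (84765387 to 84775444) and Cd59a (104095801 to 104115354) are on chromosome 2, and Cd55 (130439027 to 130462744) is on chromosome 1. Shared sequence limits how reads of some members could be assigned. Of the 31-base stretches in the transcripts of each gene, 0 percent of C3 and Serping1 also occurred in transcripts of another gene. The share was 75.5 percent for Cfb and 40.2 percent for C2 with the readthrough gene Gm20547, 48.3 percent for C4b with C4a, 56.9 percent for C1ra with C1rb and 33.5 percent for C1s1 with C1s2. It was 11.2 percent for Cd55 with Cd55b and 8.23 percent for Cd59a with Cd59b. How reads from these stretches were divided between the genes was not tested, so the counts of those members are uncertain to an unknown degree. As deposited, the highest count in a library was 7 for Gm20547, 71 for C4a, 58 for C1rb, 32 for C1s2, 139 for Cd55b and 46 for Cd59b.

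RefSeq promoters, 250 bases before to 50 after a gene's start, were at hand for 5 of the 9 genes: C3, C1ra, C1s1, Cd55 and Cd59a. None was at hand for Cfb, C2, C4b and Serping1. The promoter of C3, the gene that rose with CRE, is shown with that of Cd55, the other abundant member, on build GRCm38.p6, 5′ to 3′ on the gene's strand. Capitals mark the motif found. For C3 (chr17:57228087-57228386, minus strand) it is the C/EBP core TTGCNNAA, 45 bases before the start, and for Cd55 (chr1:130462695-130462994, minus strand) it is the AhR response core GCGTG, read on the other strand as CACGC, 46 bases before the start.
C3: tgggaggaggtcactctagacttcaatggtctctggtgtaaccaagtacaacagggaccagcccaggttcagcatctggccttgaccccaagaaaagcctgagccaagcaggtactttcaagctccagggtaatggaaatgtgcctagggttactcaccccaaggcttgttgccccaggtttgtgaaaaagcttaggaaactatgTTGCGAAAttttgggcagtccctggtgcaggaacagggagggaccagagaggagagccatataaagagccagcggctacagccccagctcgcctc
Cd55: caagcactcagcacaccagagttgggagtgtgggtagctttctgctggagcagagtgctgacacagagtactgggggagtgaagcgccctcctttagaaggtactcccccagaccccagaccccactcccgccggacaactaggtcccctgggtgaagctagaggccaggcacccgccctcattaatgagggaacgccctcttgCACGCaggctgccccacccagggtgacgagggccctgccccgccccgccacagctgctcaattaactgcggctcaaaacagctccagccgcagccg

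Both strands of all 5 promoters were searched for 4 motifs: the NF-kB consensus, the AhR response core GCGTG, the C/EBP core TTGCNNAA and the STAT core TTCNNNGAA. Of 32851 RefSeq promoters of this length, 8.46 percent held the NF-kB consensus, 32.4 percent GCGTG, 10.8 percent TTGCNNAA and 8.3 percent TTCNNNGAA. C1ra held TTGCNNAA 17 bases and TTCNNNGAA 33 bases after the start, C1s1 held TTGCNNAA 242 bases before the start in 1 of its promoter entries, and Cd59a held GCGTG 10 bases after the start. The NF-kB consensus was in 0 of the 5, which says only that its letters are not in these windows. No matches overlapped each other. They describe letters in a window, and no binding was measured.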

How the data were processed

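The authors aligned the RNA-seq reads of the 12 samples to GRCm38 with STAR 2.7.2b and counted genes with Salmon. The deposited counts are whole numbers without normalization, and how they became whole is not given in the sources used here. FPKM values were deposited by the authors and hold 0.0001 where the count is 0. All 55450 gene IDs were found in GENCODE M21, which gave symbols and positions, whereas the study's methods name RefSeq.

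Counts were filtered with filterByExpr at a minimum count of 10, normalized with TMM and tested over 20612 genes in 1 fit of 4 group means with edgeR 4.0.16 (quasi-likelihood, R 4.3.3), adjusted by Benjamini-Hochberg at 0.05. The code was tested on simulated data. Intervals at 95% use the t distribution with that test's degrees of freedom. They replaced normal intervals after results were seen, because those did not match the test. The looser rule used limma 3.58.1. Alternatives were DESeq2 1.42.0, limma, other scalings and filters, replicate blocks, only the libraries compared, each library left out, and others chosen after the data were seen. Figures used Python 3.11.15.

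The members and lists were chosen with earlier results of these data known. All members were named, and other complement genes where called by edgeR or among the 3 highest mean FPKM of their list.

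Replicate numbers come from the sample titles. Deviations from group means over 14543 genes correlated between PBS and CRE libraries of the same number at 0.729, 0.418 and 0.651 in AhRfl/fl cells and 0.589, 0.542 and 0.325 in Sftpc-Cre;AhRfl/fl cells, so the numbers pair them within genotype.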

Additional observations from a re-analysis of the deposited data

Results flagged for a closer look

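Cr2, which encodes complement receptor 2, had 81, 4 and 0 counts with PBS and 92, 26 and 6 counts with CRE in AhRfl/fl cells, so its CPM was higher with CRE in all 3 pairs of libraries with the same number. In Sftpc-Cre;AhRfl/fl cells it had 103, 22 and 26 counts with PBS and 48, 17 and 16 counts with CRE, and its CPM was lower with CRE in all 3 pairs. The groups overlapped in both genotypes. The difference of the CRE effect between the genotypes was -1.33 on the log2 scale (95% interval -5.66 to 2.996), and it did not pass (edgeR, Benjamini-Hochberg adjusted p = 1). With the libraries paired by number it was -2.27 (95% interval -4.70 to 0.17), which did not pass either (edgeR, Benjamini-Hochberg adjusted p = 0.565). Cr2 is among the 53 other complement genes, lies outside the naming rule and is given because of these opposite directions. The share of all genes with opposite directions in all pairs is not given. Sftpc and Sftpa1, for example, were lower with CRE in all 3 AhRfl/fl pairs and higher in all 3 Sftpc-Cre;AhRfl/fl pairs.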

How the results depend on the processing

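C3 with CRE kept its direction under every alternative in both genotypes and averaged, and its call except without PBS library 2 of AhRfl/fl cells and with only the 6 Sftpc-Cre;AhRfl/fl libraries. Of 63 member values, 45 changed sign under some alternative, 134 times in all, 0 of them called values, and the smallest Benjamini-Hochberg adjusted p after a sign change was 0.263. In a further 985 cases direction and side of the threshold were kept, in 4 a value newly passed and in 2 it no longer did. Leaving 1 library out of a fit without pairs also leaves its partner unmatched, and the cause of each change was not tested.

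With the replicate block within genotype, 2 members passed with CRE in AhRfl/fl cells, in Sftpc-Cre;AhRfl/fl cells and averaged, where the limma-trend rule and DESeq2 also gave 2. With only the 6 libraries compared, 0 passed in Sftpc-Cre;AhRfl/fl cells. Leaving out 1 library gave 0 to 1 in AhRfl/fl cells. Pairing changed no other call of a member, but it moved the counts of other lists with CRE, as given with them, and was applied to those lists, like the C1qb bounds without 1 library, the summed pairs and the paired Cr2 value, after the data were seen. Between genotypes the libraries share only a number: same-numbered deviations correlated at 0.42, 0.0416 and 0.106 with PBS and 0.413, -0.0286 and 0.0867 with CRE, and a paired block there called 71 genes with PBS, 55 with CRE and 223 averaged. Apart from leaving out 1 library and from the looser limma-trend rule, which is not adjusted, genes called over all 20612 tested ran from 20 to 748 with CRE in AhRfl/fl cells (48 in the reported fit), from 11 to 439 in Sftpc-Cre;AhRfl/fl cells (54) and from 92 to 1358 averaged (226), lowest without the libraries highest in fibroblast markers, highest with the replicate block within genotype. Between genotypes they ran from 14 to 243 with PBS (31), from 13 to 174 with CRE (35) and from 16 to 522 averaged (130), lowest with the counts of each pair summed in the averaged comparison, and for the difference from 0 to 23 (0), highest with DESeq2. Leaving out 1 library gave 19 to 47, 23 to 62, 125 to 219, 15 to 26, 21 to 30, 78 to 110 and 0 to 2 in this order. With CRE in AhRfl/fl cells, in Sftpc-Cre;AhRfl/fl cells and averaged, DESeq2 called 409, 254 and 740 genes, a replicate block shared by both genotypes 137, 112 and 529, and the looser limma-trend rule took 848, 696 and 828. That rule took 846, 705 and 847 between genotypes with PBS, with CRE and averaged, and 475 for the difference, where 7 were called without the libraries highest in fibroblast markers. With only the 6 libraries compared, 13 were called with CRE in Sftpc-Cre;AhRfl/fl cells and 15 between genotypes with PBS.

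With 1 library left out at a time, log2 values with CRE in AhRfl/fl cells ran from 0.36 to 1.68 for Cfb, from 0.29 to 0.60 for C2, from 0.31 to 0.70 for C1ra, from -0.60 to 0.54 for C4b, from -0.086 to 0.29 for C1s1, from -0.50 to 0.38 for Serping1 and from -0.30 to 0.046 for Cd59a. The range with CRE in Sftpc-Cre;AhRfl/fl cells was from -0.054 to 1.36 for C2, from -0.48 to 0.12 for C4b, from -0.058 to 0.58 for C1ra, from -0.47 to 1.07 for C1s1, from -0.66 to 0.52 for Serping1, from -0.023 to 0.12 for Cd55 and from -0.52 to 0.19 for Cd59a. Values between genotypes with PBS lay from -0.20 to 0.0054 for C3, from -0.24 to 0.62 for Cfb, from -0.68 to 0.61 for C2, from -0.74 to 0.29 for C4b, from -0.085 to 0.48 for C1ra, from -0.71 to 0.41 for C1s1, from -0.72 to 0.41 for Serping1 and from -0.15 to 0.56 for Cd59a. Leaving out 1 library gave, between genotypes with CRE, values from -0.12 to 0.027 for C3, from -0.27 to 0.81 for Cfb, from -0.23 to 0.43 for C2, from -0.27 to 0.27 for C1ra, from -0.45 to 0.57 for C1s1, from -0.62 to 0.31 for Serping1 and from -0.062 to 0.091 for Cd55. The ranges for the difference of the CRE effect were from -0.072 to 0.14 for C3, from -0.57 to 0.75 for Cfb, from -0.52 to 0.89 for C2, from -0.79 to 0.35 for C4b, from -0.50 to 0.15 for C1ra, from -0.56 to 0.98 for C1s1, from -0.54 to 0.64 for Serping1 and from -0.41 to 0.30 for Cd59a. In the same way the values for the averaged CRE effect went from -0.43 to 0.14 for C4b, from -0.20 to 0.58 for C1s1, from -0.39 to 0.20 for Serping1, from -0.050 to 0.019 for Cd55 and from -0.32 to 0.039 for Cd59a. The ranges for the averaged genotype effect ran from -0.11 to 0.43 for Cfb, from -0.23 to 0.41 for C2, from -0.022 to 0.27 for C1ra, from -0.22 to 0.34 for C1s1 and from -0.40 to 0.17 for Serping1.

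Without the library highest in fibroblast markers of each group, chosen after the data were seen, the sign turned with CRE in AhRfl/fl cells to 0.046 (C4b); between genotypes with PBS to -0.63 (C2) and -0.51 (C1s1); between genotypes with CRE to -0.048 (C2), -0.15 (C1ra) and -0.51 (C1s1); for the difference of the CRE effect to -0.071 (C3), 0.34 (Cfb), 0.59 (C2), -0.0029 (C1s1) and -0.0090 (Serping1); for the averaged genotype effect to -0.34 (C2), -0.51 (C1s1) and 0.0042 (Cd55). With limma-trend the sign turned between genotypes with PBS to -0.027 (C2) and -0.11 (C1s1); for the difference of the CRE effect to 0.048 (Cfb), 0.16 (C2) and 0.036 (Cd59a); for the averaged genotype effect to -0.025 (C1s1). With the replicate number as a block the sign turned between genotypes with PBS to -0.19 (C1s1); for the difference of the CRE effect to 0.061 (C2) and -0.029 (Serping1); for the averaged genotype effect to -0.054 (C1s1). With the replicate block within genotype the sign turned for the difference of the CRE effect to 0.045 (Cfb), 0.16 (C2) and 0.031 (Cd59a). With library size alone the sign turned for the difference of the CRE effect to -0.017 (Serping1).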
